A study of Rattus norvegicus with 2 samples.

Results

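The genes described here are 8 markers of brain regions that border the hypothalamus, and they were followed in hypothalamic tissue of female Sprague Dawley rats before and at puberty. The genes were picked by name, and all 8 were found among the 22777 genes of the deposited mRNA table. Tcf7l2, Lef1, Prkcd and Rorb mark the thalamus, which lies directly above the hypothalamus. Slc17a7, Nrgn, Neurod6 and Tbr1 mark excitatory neurons of the telencephalon, that is of the cortex, hippocampus and amygdala. Prepubertal rats were taken on postnatal day 25 and pubertal rats, in their first estrus, on postnatal day 35, with 3 hypothalami per stage and no treatment given in the labels. The tables give 1 column of values for each stage, which is read here as 1 library, so no gene was tested for a difference, and the spread between rats cannot be given.

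A hypothalamus cut by hand from the brain can carry along a rim of thalamus above it and of the telencephalon in front and at the side, and genes that are strong in those regions but weak in the hypothalamus are used as a check of the dissection. In the thalamus, most relay neurons are excitatory and load their vesicles with glutamate through the transporter VGLUT2, whereas cortical and hippocampal excitatory neurons chiefly use VGLUT1, the product of Slc17a7. None of these markers is absolute. Tcf7l2 is also made by maturing oligodendrocytes, Lef1 by brain endothelium, Prkcd by neurons of the central amygdala, and Rorb by the suprachiasmatic nucleus and by cortical layer IV.

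The members include transcription factors of 4 families, and the sequences just upstream of the members' own start sites were searched for the short motifs these families are known to bind. RefSeq promoters of the rat assembly GRCr8 were matched for all 8 genes by symbol, and the 250 bases before the start were read on both strands. Of the 3 telencephalic members that were lower in the pubertal library, Nrgn and Neurod6 each held the E-box CAGATG (reverse complement CATCTG), a motif bound by NeuroD proteins, at 2 positions. They are shown with the E-box in capitals, beside Slc17a7, whose upstream sequence held none of the motifs and whose difference between the libraries was the largest of the 8 genes in log2 ratio. Prkcd is the other member with a match, to the ROR half-site AGGTCA (reverse complement TGACCT, in capitals).
Nrgn (GRCr8 chr8:45452418-45452667, minus strand): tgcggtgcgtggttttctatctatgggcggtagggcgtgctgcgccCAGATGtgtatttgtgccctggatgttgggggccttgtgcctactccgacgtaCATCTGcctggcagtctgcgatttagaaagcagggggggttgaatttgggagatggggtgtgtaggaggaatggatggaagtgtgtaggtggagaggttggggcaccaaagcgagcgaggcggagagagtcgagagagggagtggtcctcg
Neurod6 (GRCr8 chr4:86180156-86180405, minus strand): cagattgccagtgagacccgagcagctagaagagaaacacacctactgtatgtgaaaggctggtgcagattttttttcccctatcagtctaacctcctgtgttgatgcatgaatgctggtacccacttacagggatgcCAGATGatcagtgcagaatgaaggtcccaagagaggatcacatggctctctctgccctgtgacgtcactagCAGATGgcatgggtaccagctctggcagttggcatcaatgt
Slc17a7 (GRCr8 chr1:104785955-104786204, plus strand): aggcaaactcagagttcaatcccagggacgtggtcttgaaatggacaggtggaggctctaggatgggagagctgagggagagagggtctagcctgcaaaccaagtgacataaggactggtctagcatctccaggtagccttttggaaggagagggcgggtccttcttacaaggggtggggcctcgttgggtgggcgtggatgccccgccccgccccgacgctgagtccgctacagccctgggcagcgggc
Prkcd (GRCr8 chr16:5805840-5806089, minus strand): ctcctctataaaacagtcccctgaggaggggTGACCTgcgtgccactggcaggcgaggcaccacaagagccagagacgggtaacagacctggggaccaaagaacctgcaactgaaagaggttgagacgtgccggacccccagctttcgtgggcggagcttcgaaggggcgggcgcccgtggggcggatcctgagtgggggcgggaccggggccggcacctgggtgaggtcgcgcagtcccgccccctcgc

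In Neurod6 the E-boxes begin 112 and 41 bases before the start site, and in Nrgn they begin 204 and 151 bases before it. Of all 33469 rat promoters of the same length, 14.0% held this E-box at least once and 1.20% held it 2 or more times. The ROR half-site was found in 14.1% of them. The TCF/LEF motif CTTTGAT (reverse complement ATCAAAG), found in 3.15% of promoters, and the T-box motif AGGTGTGA (reverse complement TCACACCT), found in 0.959%, had no match upstream of any of the 8 genes. The motifs do not overlap one another in these windows. The upstream sequences ranged in GC content from 44% for Tbr1 to 73.6% for Tcf7l2, against a median of 51.2% over all promoters. A match is a description of letters, and binding was not measured.

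Values are FPKM, fragments per kilobase of transcript scaled to library size, so levels of different genes can be compared per length. Low FPKM of single-transcript genes moved in even steps that correspond to whole fragments, within 0.1 of a whole number for 93.4% of 1341 low values in the prepubertal library and 92.2% of 1458 in the pubertal library, and the steps gave an effective depth of 20800000 and 16200000 fragments. These depths turn each FPKM into a number of fragments, from which 95% Poisson intervals of a level and exact binomial intervals of a ratio were computed. The intervals cover counting error only, not the differences between animals or the choice of scaling between the libraries. The tissue label was checked against 16 hypothalamic markers, all of them above 0 in both libraries. They included Pmch, the precursor of melanin-concentrating hormone, with 1675 FPKM before puberty and 2723 FPKM at puberty, and Oxt, the oxytocin precursor, with 411 and 686 FPKM. The regional regulators of the list were far lower, between 0.349 and 2.67 FPKM.

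Prkcd, which encodes protein kinase C delta, a kinase used as a marker of thalamic relay neurons, was the most abundant of the 8 genes. Its level was 107.8 FPKM in the prepubertal library, above 92.2% of the 13804 genes with a mean of at least 1 FPKM, and 85.3 FPKM in the pubertal library, above 89.6% of them. The values rest on 5491 and 3398 fragments, and the Poisson intervals of 105 to 111 FPKM and 82.5 to 88.2 FPKM do not overlap. The ratio of pubertal to prepubertal level in the FPKM as deposited was 0.792 (counting interval 0.758 to 0.827). Its direction depends on the scaling between the libraries, as given below. Nearly all of the signal came from 1 transcript of 2716 nt, and the second Prkcd transcript of 1493 nt was listed at 0.537 and 0.526 FPKM.

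Tcf7l2, a transcription factor of the Wnt pathway that sets the identity of thalamic neurons, had 19.9 FPKM before puberty (1129 fragments) and 12.2 FPKM at puberty (543 fragments). The pubertal level was 0.615 times the prepubertal one (0.554 to 0.682), the lowest ratio of the thalamic members. Lef1, its relative that acts at the same DNA motif, lay at 5.65 and 3.79 FPKM in the same order, from 110 and 58 fragments. With so few fragments the intervals of the Lef1 levels overlap, from 4.65 to 6.82 FPKM and from 2.88 to 4.90 FPKM. The interval of its ratio, 0.672 (0.479 to 0.929), lies below 1 in the FPKM as deposited. Rorb, a nuclear receptor of sensory thalamus and cortex, stood apart from the other thalamic members. It had 20.2 FPKM before puberty (483 fragments) and 21.6 FPKM at puberty (407 fragments). In the FPKM as deposited, its ratio of 1.07 (0.938 to 1.23) was within counting error of 1.

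Slc17a7, the vesicular glutamate transporter VGLUT1, was the most abundant telencephalic member, with 26.2 FPKM before puberty (1433 fragments) and 12.8 FPKM at puberty (549 fragments). The pubertal library thus held 0.490 times the prepubertal level (0.443 to 0.541), and the intervals of the levels are far apart, 24.8 to 27.6 FPKM against 11.8 to 13.9 FPKM. The longer of its transcripts, of 2968 nt, was listed at 0.187 FPKM and then at 0, so the gene's value is that of the 2893 nt transcript. Neurod6, a basic helix-loop-helix factor of cortical and hippocampal pyramidal neurons, was listed at 5.08 and 2.36 FPKM, from 179 and 65 fragments. Its ratio, 0.464 (0.343 to 0.619), was the lowest of the 8 genes on the scale without a pseudocount. Nrgn encodes neurogranin, a postsynaptic protein that binds calmodulin in forebrain neurons. It had 19.3 FPKM and 12.6 FPKM, a ratio of 0.655 (0.556 to 0.769), with 447 and 230 fragments behind the values.

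Tbr1, a T-box factor of early-born cortical neurons in the deep layers, was hardly detected, at 0.376 FPKM (14 fragments) and 0.515 FPKM (15 fragments). The ratio of 1.37 has a counting interval from 0.616 to 3.06, so no difference was detectable at this depth in either direction. The telencephalic members therefore spanned a wide range of levels within the same tissue, from 0.376 FPKM for Tbr1 to 26.2 FPKM for Slc17a7 in the prepubertal library.

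**Figure D1:**
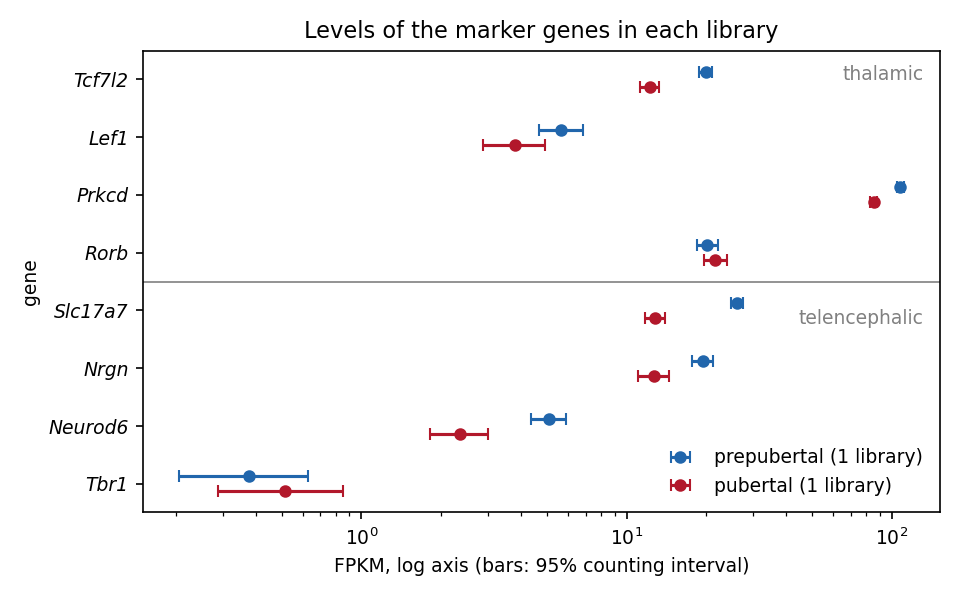
FPKM (log axis) of the 8 genes in the prepubertal library (blue) and the pubertal library (red), 1 library per stage, with 95% Poisson counting intervals as bars. The intervals are apart for Tcf7l2, Prkcd, Slc17a7, Nrgn and Neurod6, and overlap for Lef1, Rorb and Tbr1, and no bar shows the spread between rats.

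In order of level, the prepubertal library had Prkcd first, then Slc17a7, Rorb, Tcf7l2, Nrgn, Lef1, Neurod6 and Tbr1. The counting intervals of Rorb and Tcf7l2, of Tcf7l2 and Nrgn, and of Lef1 and Neurod6 overlapped there, so these neighbours do not differ beyond counting error. At puberty the order was Prkcd, Rorb, Slc17a7, Nrgn, Tcf7l2, Lef1, Neurod6 and Tbr1. Slc17a7 had moved below Rorb, and its interval overlapped that of Nrgn. Intervals of Nrgn and Tcf7l2 and of Lef1 and Neurod6 overlapped as well.

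Differences between the stages are given below as log2 of (pubertal FPKM + 1) over (prepubertal FPKM + 1), which draws low genes towards 0. The values were -0.98 for Slc17a7, -0.86 for Neurod6, -0.66 for Tcf7l2, -0.57 for Nrgn, -0.47 for Lef1, -0.33 for Prkcd, 0.10 for Rorb and 0.14 for Tbr1. Of the 8 genes, 6 were thus lower and 2 higher at puberty in the FPKM as deposited, against 51.0% lower among genes with a mean of at least 1 FPKM and 40.4% among all 22777 genes, of which 4725 were at 0 in both libraries. Prkcd turned to 0.068 when the pubertal library was scaled to equal Actb. A difference of at least 1.5-fold in FPKM + 1 was met by 3 genes, Slc17a7, Neurod6 and Tcf7l2, all lower, while over all 22777 genes 1.86% were lower and 1.43% higher by that much. No member differed by 2-fold on this scale, on which 0.373% of all genes were lower by 2-fold. Among the 13804 genes with a mean of at least 1 FPKM, which leaves out Tbr1, the share lower by 1.5-fold was 2.41%. Slc17a7 had a smaller log2 ratio than all but 75 of these genes, Neurod6 all but 103, Tcf7l2 all but 222 and Nrgn all but 350. Lef1 and Prkcd came closer to the bulk, with 4.50% and 10.3% of expressed genes below them. Rorb lay well inside it, with 68.3% of expressed genes below its log2 ratio.

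**Figure D2:**
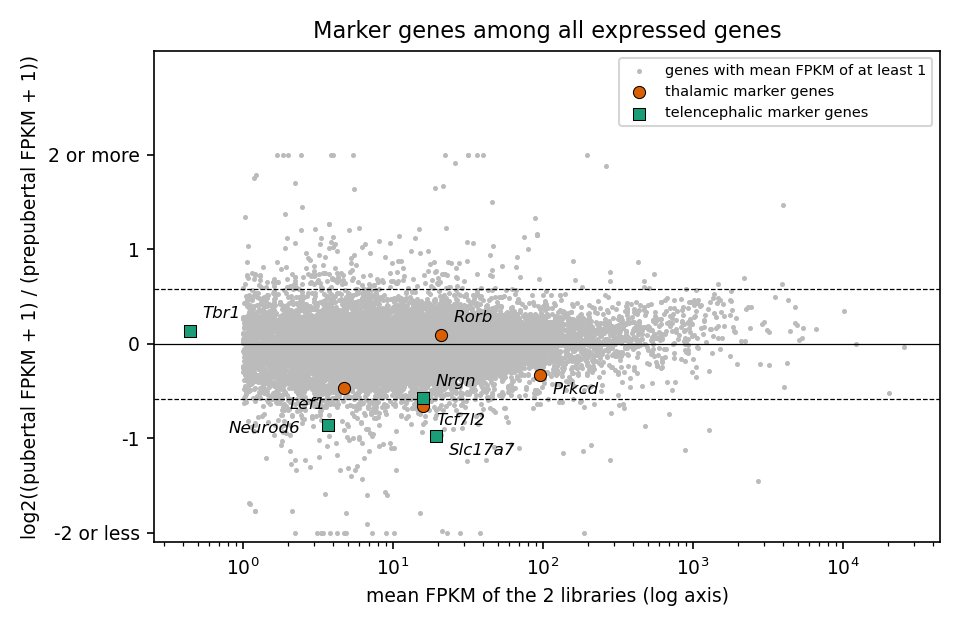
Log2 ratio of pubertal over prepubertal FPKM + 1 against the mean FPKM of the libraries (log axis) for the 13804 genes with a mean of at least 1 FPKM (grey), with the thalamic (orange circles) and telencephalic (green squares) markers, and dashed lines at 1.5-fold. The 28 genes beyond 2 in either direction are drawn at the edge, Slc17a7, Neurod6 and Tcf7l2 lie below the lower dashed line, and Rorb and Tbr1 lie just above 0.

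The median log2 ratio was -0.40 over the 4 thalamic members and -0.72 over the 4 telencephalic members, against -0.01 over genes with a mean of at least 1 FPKM. The choice of scale mattered for these values. Actb, the reference gene of the study's quantitative PCR, had 763 FPKM before puberty and 576 FPKM at puberty, and equal Actb raises the median of all expressed genes to 0.36. Only 9.67% of genes with a mean of at least 1 FPKM are then lower at puberty, in place of 51.0%, so counts of lower and higher genes with equal Actb are to be read against that share. By 1.5-fold, 0.71% of them are then lower and 16.3% higher. On that scale the medians were -0.037 for the thalamic and -0.38 for the telencephalic members, both below the 0.36 of all expressed genes. A single factor shifts most expressed genes nearly alike, so the place of these medians below that of all genes could hardly change. With equal Actb, 2 thalamic members were lower and 2, Prkcd and Rorb, were higher, at 0.068 and 0.49. Of the telencephalic members, Slc17a7, Neurod6 and Nrgn were lower at -0.60, -0.56 and -0.20. Slc17a7 alone was then lower by 1.5-fold.

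A ratio of genes within a library does not depend on the scaling. Slc17a6, which encodes VGLUT2, the transporter of thalamic and hypothalamic excitatory neurons, had 206 FPKM before puberty and 188 FPKM at puberty. It exceeded Slc17a7 by 7.86-fold in the prepubertal library and by 14.6-fold in the pubertal library. Of the summed FPKM of the 3 vesicular glutamate transporters, Slc17a7 made up 11.2% before puberty and 6.35% at puberty. Slc17a8, which encodes VGLUT3, was low in both libraries at 2.09 and 1.53 FPKM.

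Relatives of the other members gave mixed values. Among the protein kinase C genes beside Prkcd, Prkce was at 28.7 and 22.7 FPKM, a log2 ratio of -0.32, and Prkcb was at 81.6 and 76.0 FPKM, a log2 ratio of -0.10. Rora, the thalamic relative of Rorb, had 38.8 and 34.3 FPKM (log2 ratio -0.17). With equal Actb these log2 ratios turned to 0.066 for Prkce, 0.30 for Prkcb and 0.22 for Rora. Neurod1, a relative of Neurod6, had 1.43 FPKM (47 fragments) before puberty and 0.429 FPKM (11 fragments) at puberty, a log2 ratio of -0.77, while Neurod4 had 0.612 and 0.682 FPKM, a log2 ratio of 0.06. The T-box gene Eomes was at 0.196 and 0.250 FPKM, as low as Tbr1. Gap43 and Pcp4, whose products bind calmodulin by an IQ motif like neurogranin, went different ways in the FPKM as deposited, with log2 ratios of 0.30 and -0.21, and both were positive with equal Actb.

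Tcf7l2 and Lef1 act together with beta-catenin, the product of Ctnnb1. In a list of 7 other genes of this pathway, 5 were lower and 2 higher at puberty in the FPKM as deposited, against 1 lower and 6 higher with equal Actb. Of genes with a mean of at least 1 FPKM, 51.0% were lower as deposited (2.41% by 1.5-fold) and 9.67% with equal Actb. None of the 7 differed by 1.5-fold in the FPKM as deposited, and the median of -0.08 turned to 0.13 with equal Actb. Ctnnb1 itself had 316 and 299 FPKM, and the Wnt target Axin2 had 5.49 and 5.96 FPKM. On the scale with a pseudocount of 1 FPKM and in the FPKM as deposited, the lowest of these 7 genes was Apcdd1 at -0.27, against -0.66 for Tcf7l2 and -0.47 for Lef1. Without a pseudocount the ratio of Tcf7l1 was 0.639 (0.197 to 1.84, from 12 and 6 fragments), below the 0.672 of Lef1 and within counting error of 1. With equal Actb Lef1 was at -0.14.

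Because Tcf7l2 is also made by oligodendrocytes, their markers are given beside it. Of 10 markers, all above 0 in both libraries, 6 were lower and 4 higher at puberty in the FPKM as deposited (2 lower and 8 higher with equal Actb), with a median of -0.20 (0.20 with equal Actb) and a summed level of 12018 and 13002 FPKM. Of genes with a mean of at least 1 FPKM, 51.0% were lower as deposited and 90.3% higher with equal Actb. Gpr17, a receptor of immature oligodendrocytes, had the lowest log2 ratio of the 10, -0.83, with 38.2 and 21.1 FPKM. Mbp, a protein of mature myelin, had 4633 and 5335 FPKM. Other myelin genes went both ways in the FPKM as deposited, with Mag at -0.33 and Mobp at 0.29. For Lef1, 4 of the 6 endothelial markers were lower and 2 higher in the FPKM as deposited, with none at 0 and a summed level of 210 and 203 FPKM. Their median of -0.06 turned to 0.33 with equal Actb, when all 6 were higher, against the same 90.3% of genes. The part of oligodendrocytes and endothelium in the Tcf7l2 and Lef1 values was not tested.

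Other genes known from the same regions were set beside the members. All marker lists were drawn up with earlier results of these data known, so their counts are a description and not a test. All 13 other thalamic markers were lower at puberty in the FPKM as deposited, against 51.0% of genes with a mean of at least 1 FPKM, and 5 of 13 were lower with equal Actb, against 9.67% of those genes. Their median log2 ratio was -0.34, near that of Prkcd, and 0.051 with equal Actb. In the FPKM as deposited 1 of 13 was lower by 1.5-fold, against 2.41% of genes with a mean of at least 1 FPKM. The 1 marker was Gbx2, a homeobox factor of developing thalamus, with 4.29 and 2.24 FPKM (log2 ratio -0.71). Ramp3, a receptor partner strong in thalamus, had 98.1 and 81.9 FPKM, and its counting interval lay below that of Prkcd in the prepubertal library and overlapped it in the pubertal library. In the habenula, which caps the thalamus, the nicotinic receptor subunit Chrna3 had 6.32 and 2.24 FPKM and the receptor Gpr151 had 6.18 and 3.07 FPKM, log2 ratios of -1.18 and -0.82.

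Of 14 other cortical and hippocampal markers in the table, 13 were lower and 1 higher at puberty in the FPKM as deposited, and 9 were lower with equal Actb, against 51.0% and 9.67% of genes with a mean of at least 1 FPKM. The median was -0.32 in the FPKM as deposited and -0.036 with equal Actb. As deposited, 3 of 14 were lower by 1.5-fold, against 2.41% of genes with a mean of at least 1 FPKM. Among them were Camk2a, the alpha subunit of calcium/calmodulin kinase II, at 59.6 and 24.8 FPKM (log2 ratio -1.23), and Itpka, an inositol trisphosphate kinase of dendritic spines, at 4.42 and 1.19 FPKM (-1.31). These differences were larger than that of Slc17a7, while Camkv was level at 82.7 and 79.6 FPKM. Of 10 striatal markers, 7 were lower and 3 higher, none by 1.5-fold, with a median of -0.06 and a summed level of 122 and 124 FPKM. With equal Actb, 2 of the striatal markers were lower and 8 higher, with a median of 0.25.

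Of the 16 hypothalamic markers, 12 were higher and 4 lower at puberty in the FPKM as deposited, while 49.0% of genes with a mean of at least 1 FPKM were higher. Their median was 0.24, and 0.48 with equal Actb, when 14 of 16 were higher, against 90.3% of those genes. Oxt and Pmch were higher by log2 ratios of 0.74 and 0.70, and the 4 lower ones were the vasopressin precursor Avp at -0.08 and the regulators Otp, Rax and Nkx2-1 at -0.31, -0.16 and -0.08. Pituitary markers summed to 31.8 FPKM before puberty and 44.1 FPKM at puberty. Most of the sum was Cga, the shared alpha subunit of the glycoprotein hormones, with 24.6 and 30.0 FPKM, above every described gene but Prkcd in the pubertal library. Gh1, growth hormone, had 0.872 FPKM (10 fragments) and 4.09 FPKM (37 fragments). Prl, prolactin, was listed at 0 and then at 3.40 FPKM (41 fragments). Of the 6 pituitary markers, 4 were higher and 2 lower in the FPKM as deposited, and 5 were higher with equal Actb. The shares of genes with a mean of at least 1 FPKM that were higher are the same 49.0% and 90.3%. Of the markers of midbrain, hindbrain and cerebellum, Hoxa5 and Hoxb5 were listed at 0 in both libraries. The dopamine transporter Slc6a3 had 13.01 and 24.4 FPKM and the Purkinje cell gene Pcp2 had 4.94 and 4.41 FPKM, and of the markers above 0 in this list 3 were higher and 3, Pcp2, Tph2 and En2, were lower in the FPKM as deposited. More or fewer cells of a region and more or less RNA per cell cannot be told apart in bulk tissue, and stage and dissection cannot be told apart with 1 library per stage.

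**Figure D3:**
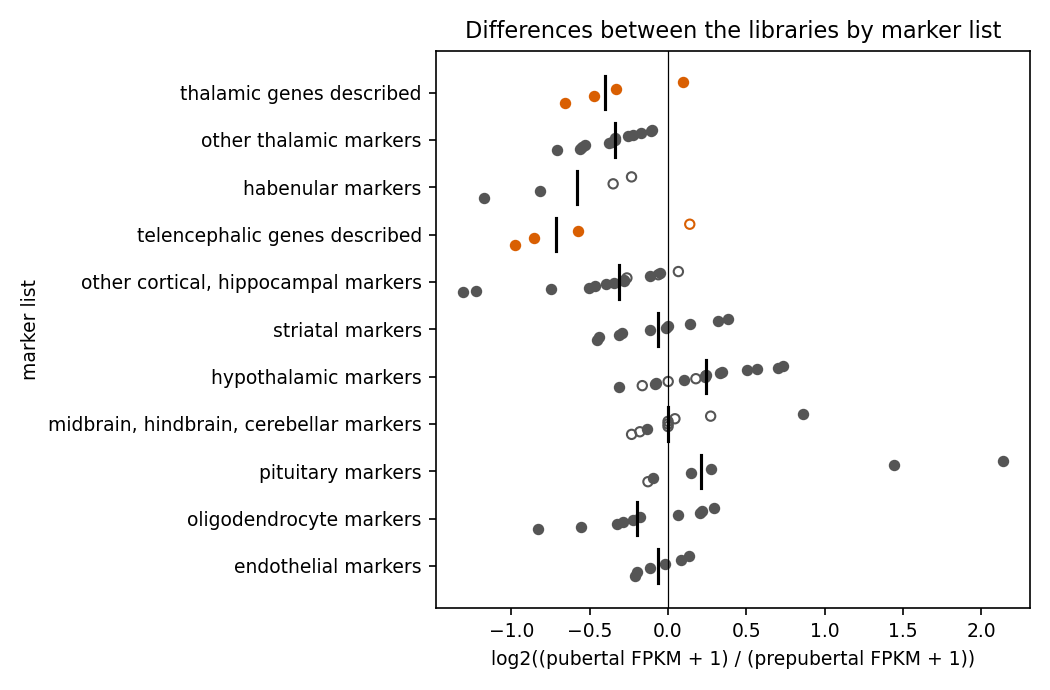
Log2 ratio of pubertal over prepubertal FPKM + 1 for each gene of 11 marker lists, in the FPKM as deposited, with the described thalamic and telencephalic genes in orange, open circles for genes with a mean below 1 FPKM and a black bar at each list's median. Medians run from -0.72 for the described telencephalic genes to 0.24 for the hypothalamic markers, and with equal Actb the medians of the other thalamic, striatal, oligodendrocyte and endothelial markers become positive, at 0.051, 0.25, 0.20 and 0.33.

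The genes nearest to each member in the plane of the 2 log2(FPKM + 1) values were Rbm25l1 for Tcf7l2, Pycr1 for Lef1, Reep5 for Prkcd, Tmem192 for Rorb, Chi3l1 for Nrgn, AABR06078887.1 for Neurod6 and Rad21l1 for Tbr1. The distances were between 0.00139 and 0.0538 on this scale. Slc17a7 had its nearest gene, Peli1, at a distance of 0.132 and no gene within 0.1. In contrast, 158 genes lay within 0.1 of Rorb and 106 within 0.1 of Tbr1. A likeness over 2 libraries rests on 2 numbers per gene.

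**Figure D4:**
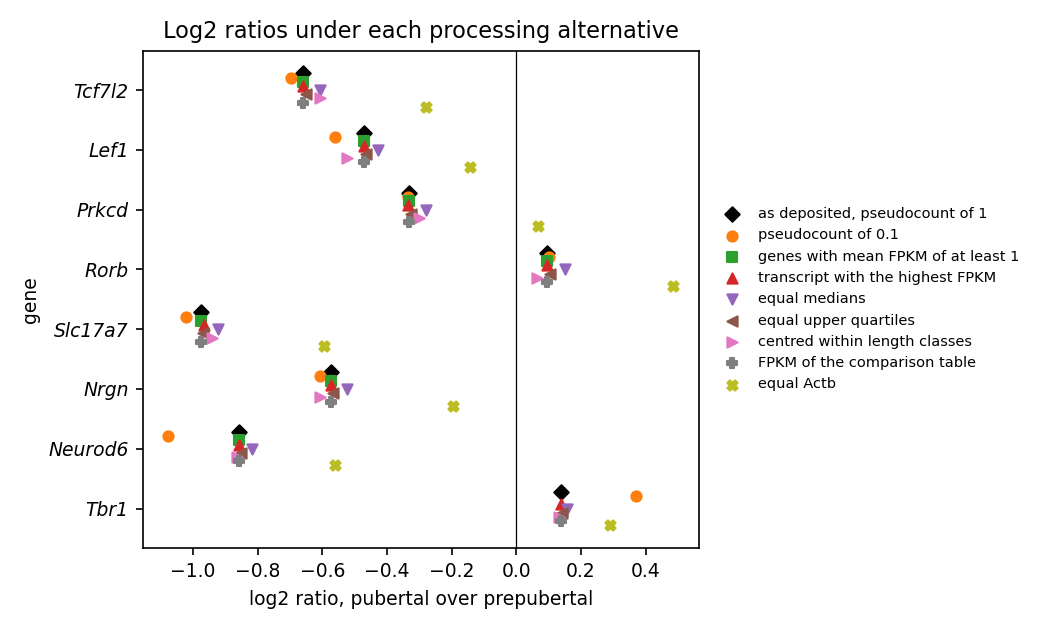
Log2 ratio of pubertal over prepubertal level for the 8 genes under the setting used here (black diamonds) and 8 other settings, 1 symbol per setting. Tcf7l2, Lef1, Slc17a7, Nrgn and Neurod6 stay below 0 and Rorb and Tbr1 above 0 in each setting that gives a value, whereas Prkcd moves from -0.33 to 0.068 with equal Actb. The filter and the FPKM of the comparison table repeat the members' values and could not move them.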

How the data were processed

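Hypothalamic RNA of 1 prepubertal and 1 pubertal column was analysed. The authors depleted ribosomal RNA, prepared stranded libraries from 3 rats per stage, aligned paired reads with TopHat and estimated FPKM per transcript with Cuffdiff 2.1.1, already scaled for depth and length. Per the labels the build was Rnor_5.0, while the methods name the annotation of Rnor_6.0. How the rats were combined is not given in the sources used here. The authors' deposited comparison table also holds log2 ratios, p-values and q-values, which were not used. Its gene names and transcript lengths (other values, in nt) were used.

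The deposited FPKM were summed per gene over 26324 mRNA transcripts. A pseudocount of 1 FPKM was added, without a filter, and 1.5-fold was the threshold. Depth came from single-transcript genes of at least 800 nt with fewer than 6 fragments, tested on simulated data, with a length offset of 260 nt before puberty and 250 nt at puberty. It is an effective depth, since the scaling by Cuffdiff is contained in it. Genes named were the 8 members, their relatives, in each other list the genes with the highest level and the largest difference, and the gene nearest to each member. Avp, Otp, Rax, Nkx2-1, Tph2, En2, Hoxa5, Hoxb5, Axin2, Mag and Mobp fall outside this rule and were chosen after their values were seen. Members and lists were chosen with earlier results of these data known, and no list was tested. The marker lists cover other thalamic, habenular, other cortical and hippocampal, striatal, hypothalamic, midbrain, hindbrain and cerebellar, pituitary, oligodendrocyte and endothelial genes, beside the TCF/LEF pathway and relatives of the members. Neurod2 and Drd1a were not found in the table by name. The values of 2 genes of the lists are not reported here. Computations used scipy 1.17.1, pandas 2.3.3 and numpy 2.4.6 in Python 3.11.15, and plots matplotlib 3.10.9. Alternatives were another pseudocount, a filter on low values, the highest transcript, 3 scalings, length classes, the FPKM of the comparison table and a 2-fold threshold.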

Additional observations from a re-analysis of the deposited data

How the results depend on the processing

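A pseudocount of 0.1, a mean of at least 1 FPKM (which leaves Tbr1 without a value), each gene's most abundant transcript alone, equal medians (a factor of 1.04 on the pubertal library) or equal upper quartiles (a factor of 1.005), centring within 10 length classes and the FPKM of the comparison table kept the direction of each member's log2 ratio and of the medians of the thalamic and telencephalic members and of the other marker lists given with medians here. Some of these settings could not move a member. The filter leaves the value of a kept gene as it is, and 0 member transcripts differed in the comparison table. The most abundant transcript could change only Prkcd and Slc17a7, as the other members have 1 transcript each. Equal Actb, a factor of 1.32 added after the data were examined, moved the medians to -0.037 for the thalamic and -0.38 for the telencephalic members and moved that of the other cortical and hippocampal markers to -0.036. It turned the medians of the other thalamic, striatal, oligodendrocyte and endothelial markers and of the TCF/LEF pathway to 0.051, 0.25, 0.20, 0.33 and 0.13, and the log2 ratio of Prkcd to 0.068. With equal Actb, 1 member, Slc17a7, differed by 1.5-fold, in place of 3, while 0.71% of genes with a mean of at least 1 FPKM were lower and 16.3% higher by that much. At a threshold of 2-fold in FPKM + 1, 0 members were past it, against 0.373% of all genes that were lower by that much. With a pseudocount of 0.1, and likewise within length classes, 4 members differed by 1.5-fold. The share of all genes that did so was not computed for these settings, so 4 cannot be set against 3. No paired analysis was possible because there is 1 library per stage, and for the same reason no replicate could be left out. Depth limits Tbr1 and Lef1 most, and no interval here holds the spread between rats.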
